A study of Homo sapiens with 9 samples.

Results

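CST7, CYP11A1, ISYNA1 and C20orf204 are 4 of the 59050 gene symbols in the count table of MEC1, an established cell line from chronic lymphocytic leukemia (CLL) that grows as B cells in suspension. They were selected on measured values, namely a large fall at day 7 of 3D culture against 2D or a large rise from day 7 to day 14, so the differences between groups given for them are descriptions with no test. All 4 were among the 13463 genes tested, those with more than 1 CPM (counts scaled to a common library size) in at least 3 samples. CPM values below used library sizes corrected by TMM factors. RNA was sequenced from 9 samples of the same line, 3 grown in 2D suspension (2D), 3 bioprinted in a hydrogel bioink and kept in culture for 7 days (3D_7d) and 3 kept for 14 days (3D_14d). The labels name no drug or other treatment, and all 9 sample titles carry the letters PGK after the cell line, which the sources used here do not explain. The labels do not state that replicates came from separate cultures, so the spread between them may be technical. RNA of the scaffolds went through TRIzol, DNase and a column, and RNA of the 2D cells through the column kit alone, so culture format and extraction cannot be told apart in comparisons with 2D, whereas both time points shared the extraction. The labels give no day for the 2D samples, so time in culture cannot be told apart from these in comparisons with 2D either. Each library held between 54662799 and 85968686 counts assigned to genes, and mitochondrially encoded genes took 2.30 to 2.83% of them in 2D, 1.44 to 1.64% in 3D_7d and 1.62 to 2.82% in 3D_14d. As a group, 3D_7d had the lowest share and the lowest levels of the 4 genes, but its share overlapped that of 3D_14d. The part of this share in the values of the 4 genes was not tested. The B-cell markers MS4A1, CD79A, CD79B, PAX5 and CD22 were all expressed, with group means from 46.9 CPM for PAX5 in 2D to 1524 CPM for MS4A1 in 3D_7d. In bulk RNA, fewer cells expressing a gene and less RNA per cell cannot be told apart.

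The 4 genes do different work. CST7 encodes cystatin F, an inhibitor of lysosomal cysteine proteases found in immune cells and best known from cytotoxic lymphocytes. CYP11A1 encodes the mitochondrial cytochrome P450 that cuts the side chain of cholesterol to give pregnenolone, the first step of steroid hormone synthesis, which needs electrons from ferredoxin and its reductase. ISYNA1 encodes inositol-3-phosphate synthase, which makes the precursor of myo-inositol from glucose 6-phosphate. C20orf204 is annotated as protein-coding, was earlier named as the noncoding RNA LINC00176, and has no function that can be stated here with certainty.

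The sequences upstream of 3 of the genes are shown because ISYNA1 and C20orf204 had nearly the same profile over the 9 samples while CYP11A1 departed from both. They were taken from RefSeq (GRCh38.p14), which matched 3 of the 4 symbols, and are written 5′ to 3′ on the strand of the gene up to the first base of the gene in the count table. Capitals mark a match to a searched motif.

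CYP11A1, chr15:74367647-74367896, minus strand: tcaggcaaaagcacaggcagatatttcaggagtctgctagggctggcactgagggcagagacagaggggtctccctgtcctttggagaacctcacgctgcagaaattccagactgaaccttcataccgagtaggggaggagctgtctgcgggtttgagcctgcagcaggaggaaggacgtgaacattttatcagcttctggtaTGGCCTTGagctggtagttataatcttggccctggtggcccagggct

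ISYNA1, chr19:18438302-18438383, minus strand: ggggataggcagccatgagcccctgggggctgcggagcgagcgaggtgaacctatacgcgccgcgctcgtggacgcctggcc

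C20orf204, chr20:64035932-64036174, plus strand: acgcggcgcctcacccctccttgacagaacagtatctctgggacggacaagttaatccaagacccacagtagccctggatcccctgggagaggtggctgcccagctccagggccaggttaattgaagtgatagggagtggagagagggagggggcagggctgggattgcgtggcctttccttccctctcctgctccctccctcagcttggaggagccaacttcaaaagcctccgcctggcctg

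For 8 motifs the 250 bases before each start were searched on both strands. CYP11A1 held 1 match, to the site of the steroidogenic factor NR5A1 (CAAGGNCA, present in 4.51% of 35116 windows of this length), read on the printed strand as TGGCCTTG between 47 and 40 bases before the start. ISYNA1 held 2 overlapping GC boxes (GGGCGG, in 42.6% of windows), at 57 to 52 and at 52 to 47 bases before its start, in the stretch beyond the printed part, which belongs to the gene in the count table. C20orf204 held none of the 8. The others searched, with no match in these 3 windows, were the E-box (CACGTG, in 6.34% of windows), the CCAAT box (32%), the TATA box (TATAAA, in 10.7%), the cAMP response element (TGACGTCA, in 1.65%), the AP-1 site (TGANTCA, in 6.57%) and the composite site of ATF4 and CEBP factors (TGATGNAA, in 3.14%). A match in these letters is a description and not a measured binding site.

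CST7 (ENSG00000077984.6) lies on the plus strand at chr20:24949269-24959928 of GRCh38, and its exons cover 891 bases with a GC content of 56.5%. In 2D it stood at 54.1, 49.0 and 46.4 CPM in replicates 1 to 3, in 3D_7d at 2.87, 2.85 and 2.97 CPM, and in 3D_14d at 29.9, 22.6 and 23.3 CPM. The 3 groups were apart from each other, and the 3D_7d samples lay within a factor of 1.04 of each other. The mean of 3D_7d was 5.81% of that of 2D (2.90 ± 0.0618 against 49.8 ± 3.92 CPM, SD, n = 3 each), and that of 3D_14d was 50.7% (25.3 ± 4.06 CPM). On the log2 scale CST7 was lower by 4.10 at day 7 than in 2D (-4.10, SE 0.18) and higher by 3.12 at day 14 than at day 7 (SE 0.18), leaving it 0.98 below 2D (-0.98, SE 0.16). Thus 76.1% of the log2 difference seen at day 7 was regained by day 14.

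CYP11A1 (ENSG00000140459.18) lies on the minus strand at chr15:74337759-74367646, with 2331 exonic bases and a GC content of 59.4%. It stood at 27.6, 28.0 and 29.6 CPM in 2D, at 4.69, 6.52 and 3.73 CPM in 3D_7d and at 90.7, 89.6 and 47.7 CPM in 3D_14d. It was the 1 gene of the 4 in which every 3D_14d sample was above every 2D sample. The mean of 3D_7d was 17.5% of that of 2D, the smallest fall of the 4, and that of 3D_14d was 268%, with single samples between 168 and 320%. The log2 fold change was -2.51 (SE 0.26) for 3D_7d vs 2D, 3.93 (SE 0.28) for 3D_14d vs 3D_7d and 1.42 (SE 0.25) for 3D_14d vs 2D. The 3D_14d replicates differed by a factor of 1.90, and leaving out each of these 3 in turn moved the last value between 1.28 and 1.67, the higher one without 3D_14d replicate 3.

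ISYNA1 (ENSG00000105655.19) lies on the minus strand at chr19:18434388-18438301, with 2624 exonic bases and a GC content of 64.3%. It stood at 57.9, 60.5 and 62.5 CPM in 2D, at 4.97, 2.57 and 2.72 CPM in 3D_7d and at 12.4, 14.0 and 10.1 CPM in 3D_14d. The 3D_7d samples reached 4.27 to 8.23% of the 2D mean and the 3D_14d samples 16.8 to 23.2%, so the groups were apart but day 14 stayed far below 2D. The log2 fold change was -4.14 (SE 0.26) at day 7 against 2D, 1.83 (SE 0.24) from day 7 to day 14 and -2.31 (SE 0.24) at day 14 against 2D.

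C20orf204 (ENSG00000196421.9) lies on the plus strand at chr20:64036175-64039001, with 961 exonic bases and a GC content of 71.4%. It stood at 69.2, 57.2 and 52.1 CPM in 2D, at 3.29, 2.01 and 2.53 CPM in 3D_7d and at 11.7, 10.3 and 10.8 CPM in 3D_14d. It was at 4.38% of the 2D mean at day 7, the lowest of the 4, and at 18.4% at day 14, again with no overlap between groups. Its log2 fold change was -4.51 (SE 0.22), 2.07 (SE 0.20) and -2.44 (SE 0.20) in the same order of comparisons. ISYNA1 and C20orf204 regained 44.2% and 45.8% of the log2 difference of day 7. The fewest counts behind any of these values were 110 for C20orf204 in 3D_7d replicate 2, with an exact 95% Poisson interval of 90.4 to 133 that covers counting error only.

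**Figure D1:**
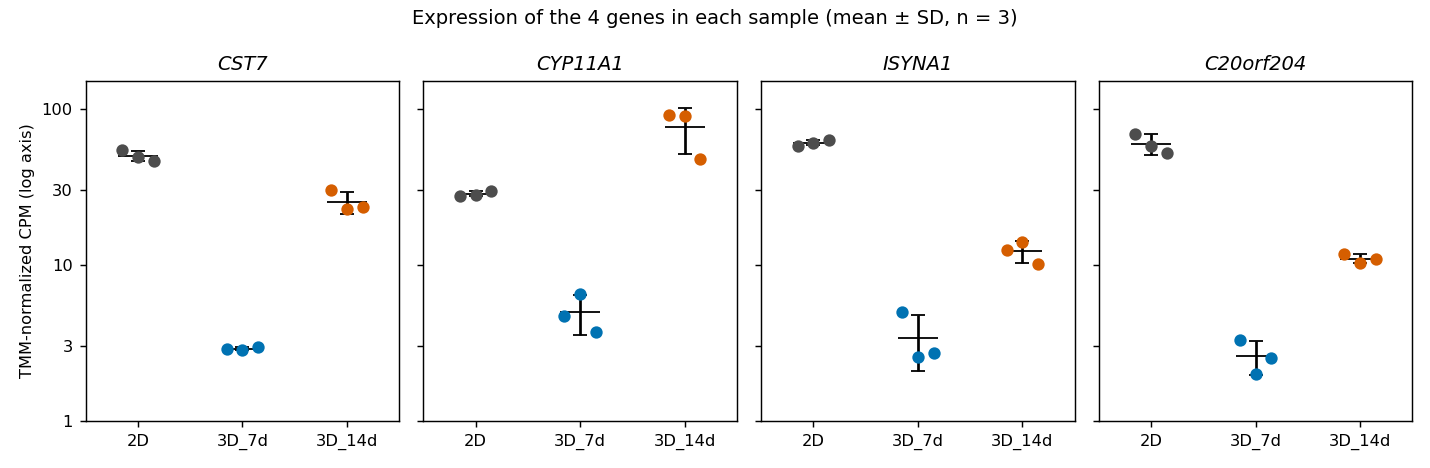
Expression of the 4 genes in each sample, in CPM scaled by TMM factors on a log axis. Points are single samples, and horizontal lines with bars are the mean and SD of 3 samples. For each gene the 3D_7d points lie below all others, and CYP11A1 is the 1 gene whose 3D_14d points, 47.7 to 90.7 CPM, lie above its 2D points, 27.6 to 29.6 CPM.

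No overlap between the 3 lower and the 3 higher samples was common in these data, which bears on how the separation of the 4 genes reads. Among all tested genes, 64.6% showed no overlap between 3D_7d and 2D (32.2% higher and 32.4% lower), 49.7% between 3D_14d and 2D (24.2% higher and 25.5% lower) and 39.3% between 3D_14d and 3D_7d (18.9% higher and 20.5% lower). The 4 genes were chosen for the size of their differences. Ranked from the lowest log2 fold change of 3D_7d vs 2D over 13463 genes, C20orf204 was number 22, ISYNA1 37, CST7 38 and CYP11A1 218. CHAC1 (-4.51) followed C20orf204, EGR1 (-4.01) followed CST7, and SNHG25 and HSPA1B (both -2.51) stood on either side of CYP11A1. Ranked from the highest log2 fold change of 3D_14d vs 3D_7d, CYP11A1 was number 11, between INHBE (3.96) and CHAC1 (3.85), CST7 29, between AC126696.3 (3.12) and JSRP1 (3.00), C20orf204 175, just before EFEMP2 (2.06), and ISYNA1 261, between PPP1R3G (1.84) and CACNA1A (1.83). A fall at least as deep as that of CYP11A1 was measured in 218 genes, a rise at least as large as that of ISYNA1 in 261, and both in 87. Of these 87 genes, 13 were above their 2D level at day 14, CYP11A1 among them.

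**Figure D2:**
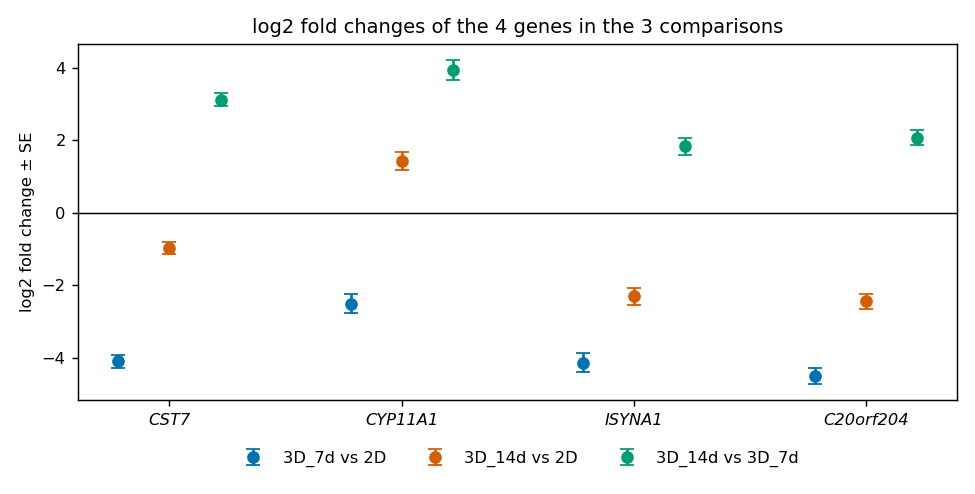
The log2 fold changes of the 4 genes in the 3 comparisons, with bars for the SE of the edgeR fit over 9 samples. At day 14 the values against 2D separate the genes, with CYP11A1 at 1.42, CST7 at -0.98, and ISYNA1 and C20orf204 at -2.31 and -2.44.

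Levels of different genes were compared per kilobase of exon (RPKM, from TMM-scaled CPM). In 2D, C20orf204 (61.9 ± 9.13 RPKM) and CST7 (55.9 ± 4.40) differed by less than the SD of C20orf204, and both were above ISYNA1 (23.0 ± 0.873) and CYP11A1 (12.2 ± 0.450). At day 7 all 4 were between 1.30 and 3.25 RPKM, in the order CST7 (3.25 ± 0.0694), C20orf204 (2.71 ± 0.669), CYP11A1 (2.14 ± 0.609) and ISYNA1 (1.30 ± 0.511), in which C20orf204 was closer than its SD both to CST7 and to CYP11A1, and in 3D_7d replicate 1 C20orf204 (3.42 RPKM) was above CST7 (3.22). At day 14 CYP11A1 (32.6 ± 10.5) and CST7 (28.4 ± 4.56) were highest and closer to each other than the SD of CYP11A1, followed by C20orf204 (11.4 ± 0.727) and ISYNA1 (4.64 ± 0.743). CYP11A1, the lowest of the 4 in 2D, was above CST7 in 2 of the 3 3D_14d samples, and in 3D_14d replicate 3 it was below it (20.4 against 26.1 RPKM). Within single samples the ratio of ISYNA1 to C20orf204 RPKM had medians of 0.387 in 2D, 0.469 in 3D_7d and 0.389 in 3D_14d, while that of CYP11A1 to ISYNA1 went from 0.533 over 1.54 to 7.20.

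Likeness of profiles was measured as the root mean square difference between log2 CPM profiles over the 9 samples, each centred on its own mean, where 0 means the same profile. ISYNA1 and C20orf204 were 0.25 apart, and out of all tested genes ISYNA1 was the closest to C20orf204 and C20orf204 the second closest to ISYNA1. CST7 was 0.63 from C20orf204 and 0.67 from ISYNA1. Out of all tested genes it was number 14 by closeness to C20orf204 and number 28 to ISYNA1. CYP11A1 was 1.02 from CST7, 1.55 from ISYNA1 and 1.604 from C20orf204, all below the median distance of all genes from CYP11A1 (1.71). By closeness to CYP11A1, CST7 was number 147, ISYNA1 3651 and C20orf204 4643. The 4 genes thus held 1 close pair, with CST7 next and CYP11A1 farther off. The same samples enter the choice of the genes and this measure, so it is given as a description.

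The 5 genes most like CST7 were AL356750.1 (0.40), CHAC1 (0.41), which encodes a glutathione-degrading enzyme, SH3D21 (0.45), AC097534.2 (0.52) and TRIM80P (0.52). AL356750.1 and TRIM80P were near 0 at day 7 (0.258 and 0.0494 CPM), so their profiles are less certain. CHAC1 went from 65.9 ± 1.47 CPM in 2D over 2.90 ± 0.443 to 41.8 ± 10.9. Those most like CYP11A1 were ADM (0.46), which encodes the peptide hormone adrenomedullin, MYL4 (0.52), a myosin light chain, YPEL4 (0.54), NDUFA4L2 (0.59) and LAG3 (0.62), an inhibitory receptor of lymphocytes. All 5 stood above their 2D mean at day 14, which follows from their choice by likeness to CYP11A1. For example, ADM stood at 3.10 ± 0.156, 0.379 ± 0.115 and 6.65 ± 1.599 CPM in 2D, 3D_7d and 3D_14d, and NDUFA4L2 at 8.31 ± 0.989, 0.614 ± 0.323 and 17.5 ± 3.91. MYL4 (0.823 and 0.245 CPM in 2D and 3D_7d) and YPEL4 (0.494 and 0.0734 CPM) were low in both groups, so their profiles are less certain. Both passed the filter on expression through their 3D_14d samples alone, so the filter favoured their rise.

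ISYNA1 was closest to EFEMP2 (0.23), an extracellular matrix protein, then C20orf204, SH3D21 (0.35), LINC01749 (0.42) and ANTXRLP1 (0.42). After ISYNA1, the list of C20orf204 held EFEMP2 (0.35), SH3D21 (0.36), RGL4 (0.40) and CD7 (0.53), a surface protein of T and NK cells. At day 7 EFEMP2 (0.687 CPM), ANTXRLP1 (0.348), RGL4 (0.444) and CD7 (0.177) were low, so their profiles are less certain. SH3D21, at 20.3 ± 0.143, 1.39 ± 0.447 and 6.45 ± 0.915 CPM in 2D, 3D_7d and 3D_14d, was among the 5 nearest genes of CST7, ISYNA1 and C20orf204. With 1 sample left out in turn, 4 of the 5 genes of C20orf204 remained each time, 3 to 5 of those of ISYNA1 and 2 to 5 of those of CST7 and of CYP11A1. Just 2 of the genes of CST7 remained without 3D_7d replicate 2, 3D_7d replicate 3 or 3D_14d replicate 1, and 2 of those of CYP11A1 without 3D_7d replicate 3.

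**Figure D3:**
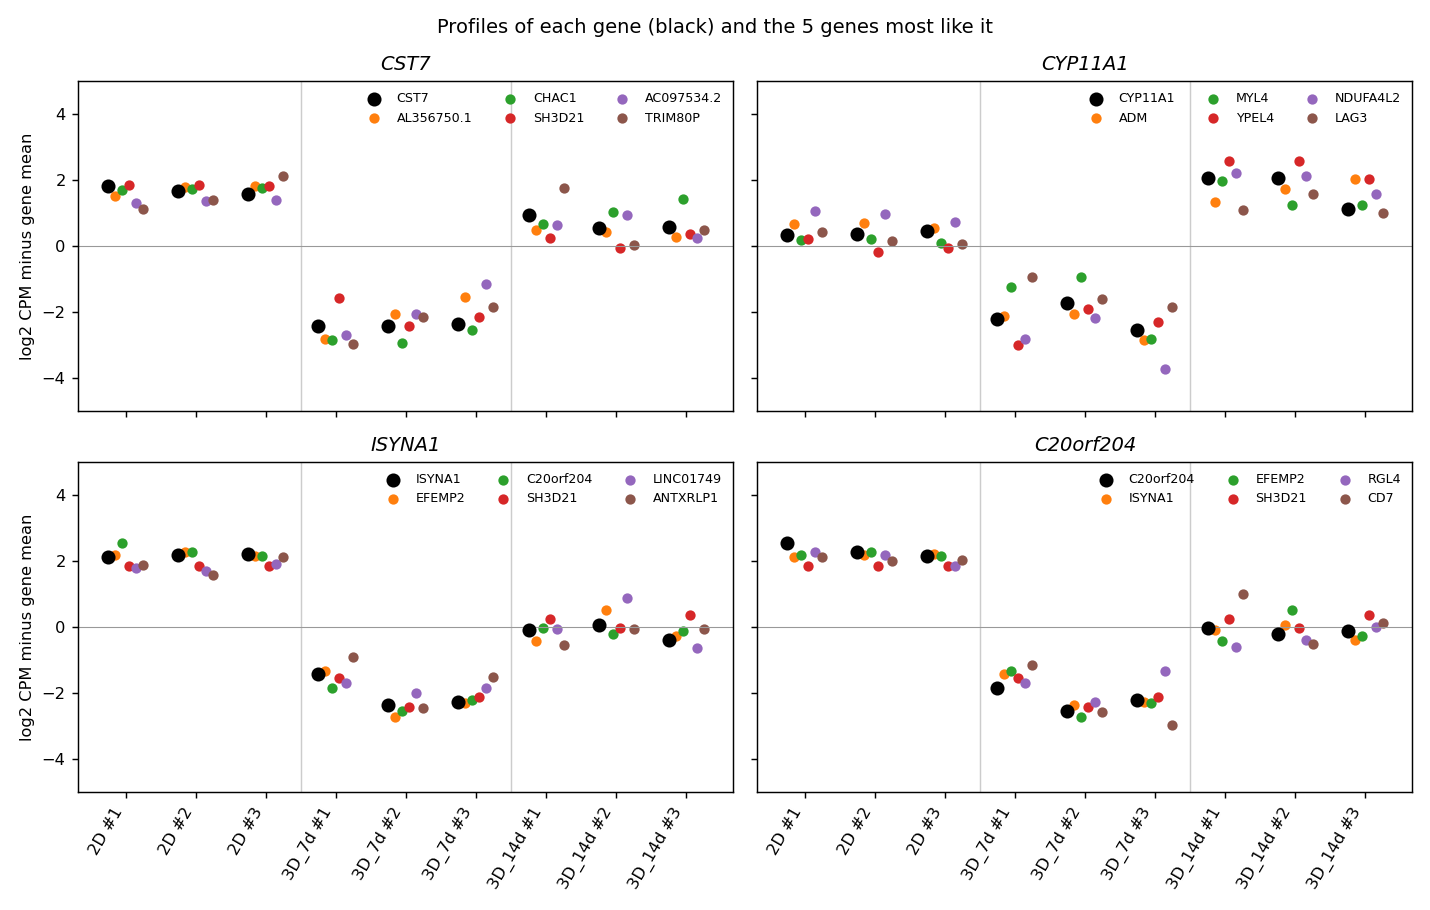
Centred log2 CPM of each of the 4 genes (large black points) and of the 5 genes most like it (coloured points) in the 9 samples. The groups around ISYNA1 and C20orf204 share EFEMP2 and SH3D21 and stay below their 2D level at day 14, whereas all genes in the panel of CYP11A1 lie above it in the group mean. The coloured genes were chosen for likeness, so these shared levels follow from the choice.

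To see whether the pathways around CST7, CYP11A1 and ISYNA1 moved in the same way, the other genes of 3 lists were tested, without the 4 genes themselves. Of 71 listed genes 53 passed the filter, and with edgeR's quasi-likelihood test and a Benjamini-Hochberg adjusted p of at most 0.05, 19 were higher and 7 lower in 3D_7d than in 2D, where 43.4% of all tested genes passed (22.2% higher and 21.2% lower). In 3D_14d vs 2D 20 were higher and 7 lower, against 36.2% of all genes (19.0% higher and 17.2% lower), and from day 7 to day 14 8 were higher and 5 lower, against 28.1% (14.5% higher and 13.6% lower). The median log2 fold change of the 53 genes at day 7 was 0.23, beside values between -4.14 and -2.51 for the 3 genes the lists surround. Those 3 were chosen for large falls or rises, so their distance from the listed genes is not a result. The 19 higher genes at day 7 became 12 without 2D replicate 1, the 20 at day 14 became 13 without 2D replicate 2, the 8 from day 7 to day 14 became 13 without 3D_14d replicate 1, and the 5 lower ones became 3 without any one of the 2D replicates and 2 without 3D_7d replicate 2 or 3D_7d replicate 3.

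Around CST7, 13 of 16 lysosomal cysteine proteases and cystatins were tested, and at day 7 against 2D 5 rose, 2 fell and 6 did not pass, with a median log2 fold change of 0.29. Of all tested genes, 22.2% rose and 21.2% fell there. CTSO (1.56, adjusted p = 0.000454), CTSZ (1.16, adjusted p = 0.000400) and CTSH (1.03, adjusted p = 0.000379) rose, all cathepsins. CTSH, an aminopeptidase, went from 447 ± 23.5 CPM in 2D over 914 ± 53.6 to 1170 ± 262 at day 14. LGMN, which encodes the asparagine-specific protease legumain, fell (-1.61, adjusted p = 0.000113) and rose again from day 7 to day 14 (1.29, adjusted p = 0.00131), at 619 ± 33.1, 202 ± 54.8 and 494 ± 121 CPM in the 3 groups. CTSF fell at day 7 (-1.04, adjusted p = 0.00750).

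At day 14 against 2D, 7 genes of this list rose and 1 fell, with a median of 0.66, where 19.0% of all tested genes rose and 17.2% fell. CTSC, which activates granzymes and is a known target of cystatin F, rose from 408 ± 27.5 to 646 ± 37.8 CPM (0.66, adjusted p = 0.00157), and CTSV fell (-1.80, adjusted p = 0.00346). From day 7 to day 14 4 rose by edgeR and 6 by DESeq2, and 0 fell by either, with 1 lower at an unadjusted p under 0.05 in edgeR. By edgeR, 14.5% of all tested genes rose and 13.6% fell. LGMN was among the 4, with CTSW (1.90, adjusted p = 0.00249), a cathepsin of NK and T cells which went from 0.922 ± 0.0953 to 3.44 ± 0.879 CPM, and CTSB (0.61, adjusted p = 0.0107), whose call was lost without the filter on expression. CST3, encoding the secreted cystatin C, was near the filter at 0.473 ± 0.183 CPM in 2D and 1.86 ± 0.285 at day 14 (1.98, adjusted p = 0.00309), and its value at day 7 (1.23, adjusted p = 0.0302) lost the call without 2D replicate 1, 2D replicate 2, 3D_7d replicate 2 or 3D_7d replicate 3 (0.91 to 1.47 over the fits without 1 sample).

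Since CST7 is known from cytotoxic lymphocytes, markers of T and NK cells were read beside it. Their summed level over 10 genes was 2.97 to 4.49 CPM in 2D, 3.45 to 3.93 in 3D_7d and 6.30 to 7.84 in 3D_14d, and 2 of the 10, KLRD1 and NKG7, passed the filter. CD3D, CD3G and NCR1 had at most 3 counts in every sample. The rise of the sum at day 14 came from KLRD1, a receptor of NK cells, with group means of 0.553 CPM in 2D, 2.31 in 3D_7d and 4.71 in 3D_14d. NKG7 (1.66, 0.424 and 1.08 CPM), CD3E (0.765, 0.214 and 0.527 CPM) and CD2 (0.410, 0.209 and 0.331 CPM) were highest in 2D and lowest at day 7, the order of groups of CST7. CD4, with at most 9 counts, had the same order. CD8A (0.0872, 0.229 and 0.184 CPM) and NCAM1 (0.0853, 0.166 and 0.166 CPM) were lowest in 2D, as was KLRD1. Of these only NKG7 and KLRD1 were tested, and the rise of NKG7 from day 7 to day 14 did not pass (1.33, adjusted p = 0.152). The part of these markers in the values of CST7 was not tested. Markers of myeloid cells summed over 7 genes to 1.83 to 2.42 CPM, 1.25 to 2.83 and 3.90 to 5.15, with CD68 at 0 counts throughout and LYZ at no more than 2. The rise of this sum at day 14 came from ITGAM, the 1 of the 7 that passed the filter. Its group means were 1.40, 0.776 and 4.21 CPM.

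Around CYP11A1, 15 of 27 genes of steroid synthesis and its electron transport were tested. At day 7 against 2D 4 rose, 3 fell and 8 did not pass (median 0.07), at day 14 against 2D 4 rose and 1 fell (median -0.11), and from day 7 to day 14 1 rose and 2 fell (median -0.24). Of all tested genes, 22.2% rose and 21.2% fell in the first comparison, 19.0% and 17.2% in the second and 14.5% and 13.6% in the third. The 1 listed gene that rose between the time points was TSPO, a mitochondrial outer membrane protein that binds cholesterol. Its level was 52.1 ± 8.64, 30.8 ± 2.28 and 120 ± 45.1 CPM in 2D, 3D_7d and 3D_14d, so that it fell at day 7 (-0.76, adjusted p = 0.0172, lost without 2D replicate 1 at -0.67 or without 3D_7d replicate 2 at -0.74), rose by day 14 (1.96, adjusted p = 0.000210) and ended above 2D (1.20, adjusted p = 0.00167). CYP11A1 had the same order of groups.

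FDX1, the ferredoxin that passes electrons to CYP11A1, fell at day 7 (-0.68, adjusted p = 0.0292), a call lost without 2D replicate 1, 2D replicate 2, 3D_7d replicate 1 or 3D_7d replicate 2 (-0.84 to -0.56 over the fits without 1 sample), and its reductase FDXR did not pass (0.24, adjusted p = 0.307). HSD17B7, which also takes part in cholesterol synthesis, fell at both time points (-1.19, adjusted p = 6.43e-05, and -1.43, adjusted p = 2.86e-05). SRD5A3 (1.33, adjusted p = 0.000784), HSD17B10 (0.98, adjusted p = 0.00250) and POR (0.76, adjusted p = 0.000644), the reductase of microsomal P450 enzymes, rose at day 7. At day 14 SRD5A1 (1.10, adjusted p = 0.000576) and HSD17B10 (0.80, adjusted p = 0.0100) were above 2D, the latter not without 2D replicate 2 or 2D replicate 3. POR and HSD17B4 were lower at day 14 than at day 7 (-0.41, adjusted p = 0.0341, and -0.40, adjusted p = 0.0487). The call of POR was lost without any one of the 2D replicates, 3D_7d replicate 2, 3D_7d replicate 3 or 3D_14d replicate 3 (-0.51 to -0.35), and that of HSD17B4 in 8 of the 9 fits without 1 sample, all but that without 3D_14d replicate 2 (-0.48 to -0.35).

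Of the 27 listed genes the other 12 were below the filter, among them 4 that are typical of steroid-producing cells. STAR, which brings cholesterol into mitochondria, had at most 62 counts in any sample, NR5A1, whose site was read upstream of CYP11A1, at most 3, HSD3B2 at most 2 and CYP17A1 at most 21. The summed level of these 4 was 0.297 to 1.10 CPM in 2D, 0.128 to 0.589 in 3D_7d and 0.148 to 0.418 in 3D_14d, where CYP11A1 was highest.

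Around ISYNA1, 25 of 28 genes of inositol synthesis, transport and use were tested. At day 7 against 2D 10 rose, 2 fell and 13 did not pass (median 0.23), at day 14 against 2D 9 rose and 5 fell (median 0.36), and from day 7 to day 14 3 rose and 3 fell (median -0.17). Among all tested genes, 22.2% rose and 21.2% fell in the first comparison, 19.0% and 17.2% in the second and 14.5% and 13.6% in the third. IMPA1 and IMPA2 encode the phosphatases that follow ISYNA1 in making myo-inositol. IMPA1 was higher at day 7 (0.75, adjusted p = 0.00579, at 31.6 ± 0.763 CPM in 2D and 53.1 ± 2.58 at day 7), whereas IMPA2 was below 2D both at day 7 (-0.87, adjusted p = 0.00115) and later (-1.04, adjusted p = 0.000497). SLC5A3, the sodium-coupled importer of myo-inositol, did not pass in any comparison, with log2 fold changes from -0.52 to 0.67.

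Among the kinases of inositol lipids, PIP5K1C (0.98, adjusted p = 0.00164), PI4KB (0.90, adjusted p = 0.000586) and PI4K2A (0.84, adjusted p = 0.000887) rose at day 7. PI4K2A (1.01, adjusted p = 0.000380) and CDS2 (0.74, adjusted p = 0.00166), which makes the lipid precursor of phosphatidylinositol, were higher at day 14 than in 2D. PI4K2A shares 28.0% of its exonic bases with other genes, so its values are less certain. PI4KA (-0.86, adjusted p = 0.0102) and PI4KB (-0.54, adjusted p = 0.0192) were lower at day 14 than at day 7, the latter call being lost without 3D_7d replicate 2 or without 3D_7d replicate 3 (-0.62 to -0.38 over the fits without 1 sample). Among the kinases of soluble inositol phosphates, IPMK fell at day 7 (-1.53, adjusted p = 0.000441), from 19.4 ± 2.64 to 6.72 ± 1.11 CPM, and stood at 11.2 ± 3.53 CPM at day 14.

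The rise of IPMK between the time points (0.74, adjusted p = 0.0409) was lost in 8 of the 9 fits without 1 sample, all but that without 3D_14d replicate 1 (0.53 to 0.98), and with the replicate number as a block. ITPKB (1.14, adjusted p = 0.000829) and ITPKC (1.05, adjusted p = 0.0184, lost without 3D_7d replicate 2 or without 3D_14d replicate 2, 0.70 to 1.39) rose from day 7 to day 14, and ITPKB was then also above 2D (0.84, adjusted p = 0.00261). PPIP5K2 (-0.87, adjusted p = 0.00958) and IPPK (-0.92, adjusted p = 0.00897) were lower at day 14 than in 2D, and IPPK also lower than at day 7 (-1.13, adjusted p = 0.00482), but IPPK shares 69.2% of its exonic bases with other genes and its value is uncertain.

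**Figure D4:**
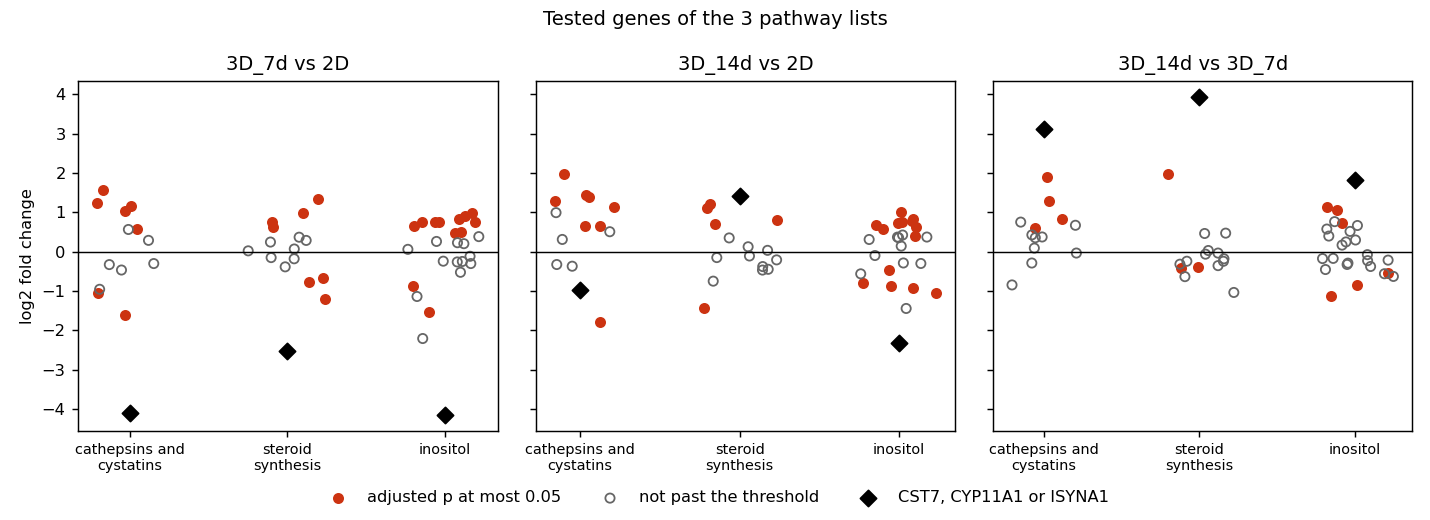
The log2 fold changes of the 53 tested genes of the 3 lists in the 3 comparisons, filled where the adjusted p was at most 0.05, with CST7, CYP11A1 and ISYNA1 as black diamonds above their own list. At day 7 against 2D the diamonds, at -4.10, -2.51 and -4.14, lie below every gene of their list, whose values run from -2.20 to 1.56 over the 3 lists. The 3 genes were chosen for large differences, so this distance is not a result.

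Position was not used to choose the 4 genes, and the 3 nearest tested genes on each side of each were tested. Among them AC090826.1 and SSBP4 overlap CYP11A1 and ISYNA1 and may share reads with them. MYT1 and AC090826.3 passed the filter on expression through their 2D samples alone. The counts below include these genes, whose values are thus not free of the choice or of the filter. Of these 24 neighbours 6 were higher, 10 lower and 8 not past the threshold at day 7 against 2D (median -0.61), where 22.2% of all tested genes were higher and 21.2% lower. From day 7 to day 14, 8 were higher, 1 lower and 15 not past it (median 0.29), against 14.5% and 13.6% of all tested genes. In 3D_14d vs 2D 4 were higher (CST3, APMAP, ELL and FKBP8) and 6 lower (NAPB, ACSS1, LRRC25, SAMD10, TCEA2 and MYT1), against 19.0% and 17.2% of all tested genes. Of these the call of APMAP was lost without any one of the 2D replicates or 3D_7d replicate 2 (0.42 to 0.54), that of LRRC25 without 2D replicate 2, 2D replicate 3 or 3D_14d replicate 3 (-1.22 to -0.59) and that of NAPB without 2D replicate 3 (-0.91 to -0.61). The 6 higher neighbours at day 7 became 2 when 2D replicate 1, 2D replicate 2, 3D_7d replicate 2 or 3D_7d replicate 3 was left out and 3 without 2D replicate 3, while the lower ones stayed between 8 and 12. Over the 3 comparisons, 10 of the neighbour values that did not pass did so under at least 1 alternative.

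Of the 10 lower neighbours at day 7, 3 were beside ISYNA1 and 4 beside C20orf204. Among the 4 was MYT1, which passed the filter on expression through its 2D samples alone. On the side of ISYNA1 toward lower coordinates, SSBP4, LRRC25 and GDF15 all fell at day 7 and rose from day 7 to day 14. GDF15, a secreted stress cytokine 45.2 kb away, stood at 7.31 ± 1.64, 0.582 ± 0.353 and 4.26 ± 3.54 CPM (-3.65, adjusted p = 0.000437, then 2.87, adjusted p = 0.00412). LRRC25, 36.8 kb away, stood at 43.0 ± 2.75, 7.39 ± 1.77 and 23.2 ± 10.1 CPM (-2.54, adjusted p = 5.00e-05, then 1.65, adjusted p = 0.00195).

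SSBP4, on the opposite strand, overlaps ISYNA1 over 6.67% of the exonic bases of ISYNA1 and fell by 1.53 on the log2 scale (adjusted p = 0.000218) before it rose by 1.04 (adjusted p = 0.00525). On the other side ELL, a transcription elongation factor 4.36 kb away, rose at day 7 (0.72, adjusted p = 0.00176), FKBP8 rose from day 7 to day 14 (0.75, adjusted p = 0.00762), and KXD1 did not pass in any of the 3 comparisons. At day 7 the values of FKBP8 (0.10) and KXD1 (0.14) were near 0.

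Around C20orf204, SAMD10 (-1.11, adjusted p = 0.000220), TCEA2 (-1.86, adjusted p = 2.55e-05), RGS19 (-0.62, adjusted p = 0.00802) and MYT1 (-4.76, adjusted p = 0.000229) fell at day 7. TCEA2, a transcription elongation factor 18.3 kb away, stood at 34.1 ± 1.12, 9.38 ± 1.14 and 19.7 ± 4.61 CPM and rose from day 7 to day 14 (1.07, adjusted p = 0.00217), as did RGS19, a regulator of G-protein signalling (0.90, adjusted p = 0.00207). MYT1, a zinc finger factor, was at only 2.498 ± 0.765, 0.0894 ± 0.0607 and 0.388 ± 0.257 CPM. It passed the filter through its 2D samples alone, so the filter favoured its fall at day 7. Without any 1 of the 2D replicates it was not tested, which left 6 fits without 1 sample. Its later rise (2.08, adjusted p = 0.0428) was lost under 7 alternatives, among them those without 3D_7d replicate 2, 3D_7d replicate 3, 3D_14d replicate 2 or 3D_14d replicate 3 (1.72 to 2.74). PRPF6, a splicing factor 3.08 kb away, and ZNF512B did not pass at day 7 (0.28, adjusted p = 0.228, and -0.60, adjusted p = 0.0885), but both did with only the 6 samples of the comparison, and ZNF512B also with total counts alone.

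CYP11A1 overlaps AC090826.1, a transcript on the opposite strand, over 27.8% of the exonic bases of CYP11A1. AC090826.1 stood at 6.38 ± 0.754, 0.898 ± 0.428 and 4.33 ± 1.05 CPM, fell at day 7 (-2.82, adjusted p = 8.91e-05) and rose from day 7 to day 14 (2.26, adjusted p = 0.00102). At day 14 its log2 fold change against 2D was -0.56 (adjusted p = 0.207), where that of CYP11A1 was 1.42. The strand setting of the read counting is not given in the sources used here, so reads of the 2 transcripts in the shared stretch, and those of ISYNA1 and SSBP4 in theirs, cannot be told apart. Farther out, STOML1 rose and then fell (0.98, adjusted p = 0.000594, then -0.72, adjusted p = 0.00764), and PML was higher at day 7 (0.47, adjusted p = 0.0465), a call kept in 2 of the 9 fits without 1 sample, those without 3D_14d replicate 1 or 3D_14d replicate 2 (0.27 to 0.51). AC090826.3 (-1.96, adjusted p = 0.0532), CD276 (-0.85, adjusted p = 0.0730) and SEMA7A (0.02, adjusted p = 0.903) did not pass at day 7. Like MYT1, AC090826.3 passed the filter on expression through its 2D samples alone. AC090826.3 passed under 8 alternatives (-2.58 to -1.42 over all alternatives) and CD276 under 4 (-1.02 to -0.80), the DESeq2 test and scaling by total counts among them for both, so that DESeq2 called 3 neighbours of CYP11A1 lower where edgeR called 1.

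The neighbours of CST7 were in part much farther off than those of ISYNA1 and C20orf204, which lay up to 119 kb away, since CST3, NAPB and GZF1 were 1311, 1528 and 1576 kb away and ENTPD6 236 kb. Of the 6 neighbours of CST7, 0 passed from day 7 to day 14 by edgeR, 0 did by DESeq2 and 0 had an unadjusted p under 0.05. By edgeR, 28.1% of all tested genes passed in this comparison. APMAP, 3.00 kb away, was higher at day 7 (0.55, adjusted p = 0.00990) and ENTPD6 was too (0.52, adjusted p = 0.0404), but the first call was lost without any one of the 2D replicates, 3D_7d replicate 2 or 3D_7d replicate 3 (0.43 to 0.66) and the second without any one of the 2D or 3D_7d replicates (0.43 to 0.56). ACSS1, an acetyl-CoA synthetase 46.3 kb away, fell at day 7 (-1.04, adjusted p = 0.000478) and stayed lower at day 14 (-0.71, adjusted p = 0.00610). NAPB was lower at both times (-0.74, adjusted p = 0.0190, and -0.76, adjusted p = 0.0201), calls lost at both times without 2D replicate 3 and at day 7 also without 3D_7d replicate 1 (-0.90 to -0.61 at day 7). GZF1 did not pass at day 7 (0.31, adjusted p = 0.134).

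**Figure D5:**
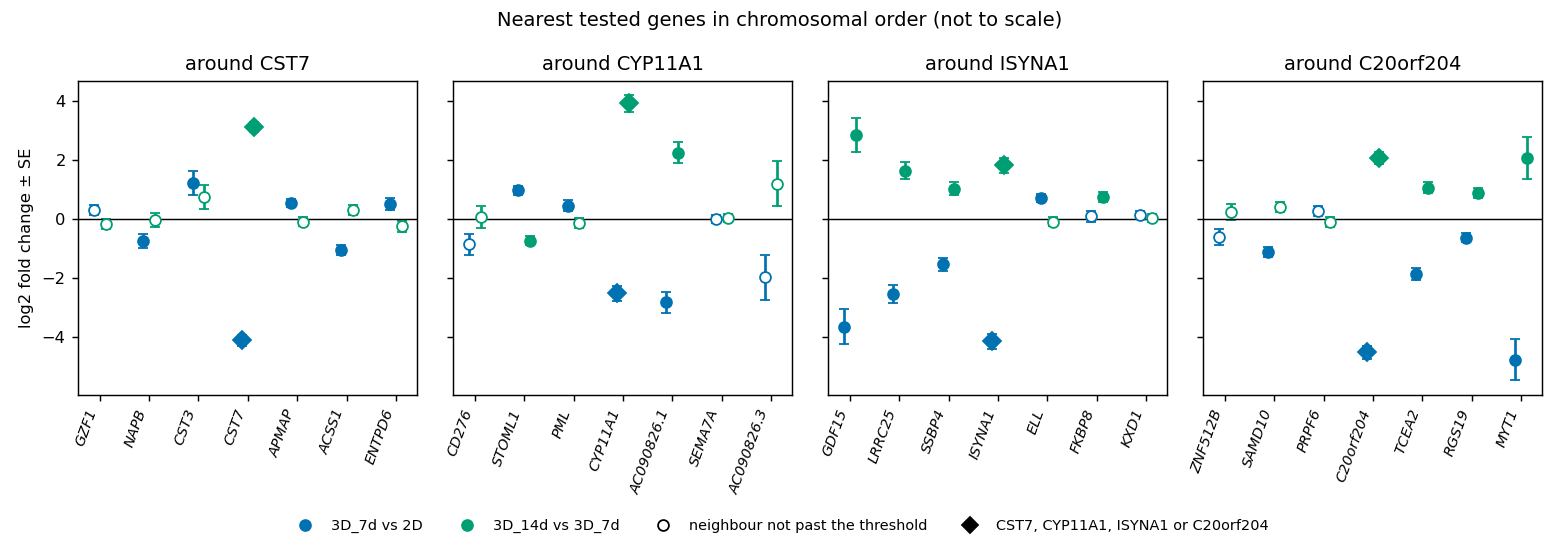
The log2 fold changes of the 4 genes (diamonds) and of the 3 nearest tested genes on each side (circles, filled where the adjusted p was at most 0.05), in chromosomal order and not to scale, with SE bars. GDF15, LRRC25 and SSBP4 beside ISYNA1 lie below 0 at day 7 and above 0 from day 7 to day 14. At day 7 the circles around CST7, of which CST3, NAPB and GZF1 are 1311 to 1576 kb away, lie between -1.04 and 1.23.

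The exons of the 4 genes were richer in G and C than those of most tested genes, whose median GC content was 48.3%. CST7 was above 75.6% of them, CYP11A1 above 84.8%, ISYNA1 above 96.0% and C20orf204 above 99.9%. The 500 tested genes nearest in GC content to C20orf204 stood at a median of -0.25 (log2) for 3D_7d vs 2D and 0.54 for 3D_14d vs 3D_7d, and those nearest to ISYNA1 -0.07 and 0.33. In these 2 comparisons the medians had the same sign as the values of both genes, whereas for 3D_14d vs 2D they were 0.34 for C20orf204 and 0.28 for ISYNA1, opposite in sign to the genes (-2.44 and -2.31). Set against these medians, the values of C20orf204 became -4.26 and 1.53 and those of ISYNA1 -4.06 and 1.50, while the medians for CST7 (0.09 and 0.04) and CYP11A1 (-0.01 and 0.15) were nearer to 0. The 500 genes of C20orf204, at 64.5 to 74.7% GC, were nearly all lower in GC than the gene itself. Their range overlaps that of the 500 genes of ISYNA1 (63.1 to 65.5%), so they match C20orf204 only loosely. The part of base composition in the values of the 4 genes was not tested beyond this. CST7 and C20orf204 also had short exonic lengths, longer than 5.86% and 6.69% of tested genes, whose median was 3441 bases.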

How the data were processed

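RNA from 9 samples of MEC1 cells was sequenced by the authors as single reads from low-input SMART-Seq libraries. Per the submitters' processing notes and the study's methods, reads were trimmed with Trimmomatic (0.39), aligned to GRCh38 with STAR (2.5.3a) and assigned to genes of GENCODE release 31 with featureCounts (1.6.4), and the deposited values are raw counts per gene symbol without normalization, with the exon length of each symbol. The handling of strand and of reads with several alignments is not given in the sources used here. Total counts ranged from 54662799 to 85968686 per sample.

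Samples were grouped by the culture and time point in their labels. The filter kept symbols whose CPM exceeded 1 in 3 samples or more, 13463 of the 51726 symbols with a count. In R (version 4.3.3), edgeR (version 4.0.16) computed TMM factors, fitted 1 mean per group over all 9 samples and applied the quasi-likelihood test to 3 contrasts, with Benjamini-Hochberg adjustment over all genes of a contrast and a threshold of 0.05. Log2 CPM used a prior count of 2. The self-test of this pipeline ran on simulated counts. The fits share samples, so the 3 comparisons are not independent.

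The 4 genes, the 3 pathway lists, the marker lists and the motifs were chosen with earlier results of these data known. Named genes were the 4 genes, the 5 genes with the most similar profile to each, up to 3 genes with the smallest p per list, contrast and direction, all chromosomal neighbours, the genes beside the 4 in the rankings and the listed markers. IMPA1, CST3, SLC5A3 and FDXR were named for their place in the pathway after their values were seen. Alternatives were scaling by total counts or by DESeq2's size factors, a DESeq2 (version 1.42.0) Wald test, filterByExpr or no filter, fits restricted to the 6 samples compared, a block for the replicate number, each sample left out in turn and, chosen after seeing the data, centring on the 500 genes nearest in GC content. One marker gene is not reported here.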

Additional observations from a re-analysis of the deposited data

How the results depend on the processing

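All 12 log2 fold changes of the 4 genes kept their sign under every alternative run. With a sample left out, 108 of 108 values moved by less than the spread between replicates. Leaving out 1 of 3 samples shifts a group mean by less than their SD, so this outcome was nearly fixed in advance. Of 96 values under alternatives other than leaving out a sample, 92 moved by less than that spread. The exceptions were CST7 in 3D_7d vs 2D with total counts alone (-4.26) and, centred on the genes nearest in GC content (an alternative chosen after seeing the data), ISYNA1 (-2.59) and C20orf204 (-2.78) in 3D_14d vs 2D and C20orf204 in 3D_14d vs 3D_7d (1.53). Total counts alone put the median of all tested genes at -0.16 (log2) in 3D_7d vs 2D and -0.18 in 3D_14d vs 2D, which bears on the first of these. With 1 sample left out the values ranged in 3D_7d vs 2D from -4.21 to -4.08 for CST7, from -2.79 to -2.38 for CYP11A1, from -4.53 to -4.01 for ISYNA1 and from -4.73 to -4.39 for C20orf204.

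Counts of calls moved more, and apart from the numbers of samples or genes in a fit the cause was not tested. Listed genes lower in 3D_7d vs 2D numbered 11 without a filter and 14 with only the 6 samples of the contrast, and higher neighbours 3 with total counts alone or without a filter. In 3D_14d vs 2D, 1603 of all genes were higher with total counts alone. In 3D_14d vs 3D_7d, 13 listed genes were higher by DESeq2, 3 were lower with filterByExpr and 2 with only the 6 samples, and 1122 of all genes were lower with only the 6 samples. With 1 sample left out, listed genes ranged from 12 to 20 (higher) in 3D_7d vs 2D, from 13 to 22 (higher) in 3D_14d vs 2D, and from 6 to 13 (higher) and 2 to 7 (lower) in 3D_14d vs 3D_7d. Higher neighbours at day 7 ranged from 2 to 6. All genes ranged from 1564 to 2845 (higher) in 3D_14d vs 2D, the lowest without 2D replicate 3, followed by 1599 without 2D replicate 2, and in 3D_14d vs 3D_7d from 1193 (without 3D_7d replicate 2) to 2187 (higher) and from 1092 (without 3D_7d replicate 3) to 2141 (lower), with 1098 without 3D_7d replicate 2. Of 77 named calls among list genes and neighbours, 59 held under every alternative and 0 changed direction.

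With the replicate number as a block, CST7 stood at -4.10 in 3D_7d vs 2D, and 18 listed genes were higher and 8 lower there. Deviations of same-numbered samples had correlations from -0.10 to -0.01 where a 3D_7d sample was involved. Between 2D and 3D_14d they were 0.19, 0.11 and 0.09, against -0.13 to 0.04 for differently numbered samples. Same-numbered samples of these 2 groups thus deviated together weakly. The numbers were not treated as pairs in the main fit. The block ended the named calls of IPMK (0.71), HSD17B4 (-0.40) and MYT1 (1.90) in 3D_14d vs 3D_7d and of PML (0.46) in 3D_7d vs 2D, and no other named call.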
